A study of Arabidopsis thaliana with 18 samples.

Results

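The 8 actin genes of Arabidopsis thaliana, ACT1, ACT2, ACT3, ACT4, ACT7, ACT8, ACT11 and ACT12, were followed through RNA sequencing of root tip sections. They are 8 of the 33602 loci listed in each deposited count file and were taken by locus identifier. The family was picked because ACT2 was low after auxin in an earlier look at these data, so the auxin against mock values of its members are described below without a test.

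The 18 libraries formed 9 groups of 2, all from primary roots of seedlings in the Col-0 background, 7 days old and grown under continuous light. In the experiment read at 101 bp, the groups were the double mutant bri1-116;bzr1-1D, the single mutant bri1-116, and wild-type Col-0 that received 5 µM IAA with 100 nM BL, 5 µM IAA alone, 100 nM BL alone, or mock solution, each for 4 h. In the experiment read at 36 bp, they were dwf4 given 100 nM BL for 4 h, untreated dwf4, and untreated wild-type Col-0. BL is brassinolide, the most active natural brassinosteroid, and IAA is the main natural auxin. BRI1 is the brassinosteroid receptor, bzr1-1D makes the pathway's transcription factor BZR1 more stable, and DWF4 is an enzyme of brassinosteroid synthesis. The labels name no dwf4 allele. The bri1-116 and double mutant roots were untreated, so their genotype and the handling of the mock treatment cannot be told apart in comparisons with Col-0. The same holds for BL and its handling in dwf4, since no mock group was read at 36 bp. Nothing in the labels tells if paired libraries are from separate cultures, so the p-values below measure only the spread between these libraries, which may be technical.

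Actin polymerises into filaments that carry organelles and vesicles and that guide cell expansion, tip growth and root hair elongation. In Arabidopsis the genes fall into a vegetative class, ACT2, ACT7 and ACT8, which is used throughout the plant body, and a reproductive class, ACT1, ACT3, ACT4, ACT11 and ACT12, best known from pollen, ovules and embryos. ACT2 and ACT8 are required for normal root hairs, and ACT7 is known for its role in germination and root growth and for its response to hormones. ACT2, ACT7 and ACT8 are also widely used as reference genes in expression assays.

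In the TAIR10.1 assembly ACT2 (AT3G18780) lies at chr3:6474710-6477204, ACT8 (AT1G49240) at chr1:18215800-18218339 and ACT7 (AT5G09810) at chr5:3052062-3054691. ACT11 (AT3G12110) lies at chr3:3857780-3860089, ACT1 (AT2G37620) at chr2:15778941-15781561 and ACT3 (AT3G53750) at chr3:19915257-19917775. ACT4 (AT5G59370) lies at chr5:23949661-23951837 and ACT12 (AT3G46520) at chr3:17128211-17131466. All 8 are on the plus strand, and each has a coding sequence of 1134 bases for 377 residues. The first 90 coding bases, from RefSeq TAIR10.1, show how close the copies are that the counting had to tell apart. Capitals mark bases that differ from ACT2.
ACT2: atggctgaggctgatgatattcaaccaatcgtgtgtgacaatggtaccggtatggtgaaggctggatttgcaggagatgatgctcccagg
ACT8: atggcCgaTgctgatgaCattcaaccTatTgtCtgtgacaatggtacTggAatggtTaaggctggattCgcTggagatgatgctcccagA
ACT7: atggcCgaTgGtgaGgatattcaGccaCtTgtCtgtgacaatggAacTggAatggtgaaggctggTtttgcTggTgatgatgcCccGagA
ACT11: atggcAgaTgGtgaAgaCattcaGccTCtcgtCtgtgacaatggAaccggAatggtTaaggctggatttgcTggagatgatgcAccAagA
ACT1: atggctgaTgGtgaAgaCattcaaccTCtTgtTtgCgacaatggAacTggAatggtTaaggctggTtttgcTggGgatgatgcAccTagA
ACT3: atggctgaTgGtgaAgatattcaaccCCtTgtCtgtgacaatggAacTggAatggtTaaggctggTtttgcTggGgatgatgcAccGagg
ACT4: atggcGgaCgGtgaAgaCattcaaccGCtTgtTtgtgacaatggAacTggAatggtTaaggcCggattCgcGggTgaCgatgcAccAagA
ACT12: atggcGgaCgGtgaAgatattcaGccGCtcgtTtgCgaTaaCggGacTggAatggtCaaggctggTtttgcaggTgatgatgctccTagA

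ACT2 and ACT8 were identical at 91.0% of coding bases and differed at 1 residue. ACT1 and ACT3 were identical at 90.5% of bases and had the same residues throughout, and ACT4 and ACT12, at 87.9%, differed at 1 residue. ACT7 differed from ACT2 at 28 residues and from ACT11 at 16. No stretch of 101 bases in any of the 8 transcripts occurred elsewhere in the genome, whereas 0.563% (ACT7) to 3.63% (ACT1) of stretches of 36 bases did, so the separation of the members rests on firmer ground at 101 bp. ACT1 overlaps AT2G37630 and ACT12 overlaps AT3G46530 on the opposite strand, and ACT8 ends 1 base before AT1G49245. The strand setting of the counting is not given in the sources used here, so reads of ACT1 and of its antisense neighbour cannot be told apart.

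Upstream DNA is shown for ACT2, ACT8 and ACT11, whose levels the comparisons below turn on, beside ACT7, whose level differed least of the 4. ACT4 differed by a larger ratio at a level of few reads, and its window is not shown. Each line holds the 250 bases before the annotated transcript start on the plus strand of TAIR10.1, at chr3:6474460-6474709, chr1:18215550-18215799, chr3:3857530-3857779 and chr5:3051812-3052061 in the order printed, and capitals mark a motif match.
ACT2: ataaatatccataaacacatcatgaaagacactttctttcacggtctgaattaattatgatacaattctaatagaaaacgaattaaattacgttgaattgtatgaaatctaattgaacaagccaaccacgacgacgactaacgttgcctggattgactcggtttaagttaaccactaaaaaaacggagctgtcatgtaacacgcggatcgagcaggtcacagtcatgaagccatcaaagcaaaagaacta
ACT8: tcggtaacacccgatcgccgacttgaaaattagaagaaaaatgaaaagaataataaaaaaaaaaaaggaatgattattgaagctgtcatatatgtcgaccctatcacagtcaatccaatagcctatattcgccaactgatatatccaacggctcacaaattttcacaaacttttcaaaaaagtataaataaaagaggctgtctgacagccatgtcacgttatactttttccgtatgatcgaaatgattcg
ACT11: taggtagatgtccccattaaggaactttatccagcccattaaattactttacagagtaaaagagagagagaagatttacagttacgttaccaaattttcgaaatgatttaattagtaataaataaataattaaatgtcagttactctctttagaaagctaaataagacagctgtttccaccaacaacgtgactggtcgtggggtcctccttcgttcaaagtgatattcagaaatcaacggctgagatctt
ACT7: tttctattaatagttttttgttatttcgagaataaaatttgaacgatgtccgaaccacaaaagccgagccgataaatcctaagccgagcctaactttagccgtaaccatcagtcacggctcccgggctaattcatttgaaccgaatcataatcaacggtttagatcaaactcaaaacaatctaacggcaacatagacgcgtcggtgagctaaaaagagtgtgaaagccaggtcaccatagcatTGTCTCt

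Both strands were searched for letters known to be bound by auxin response factors, which are TGTCTC as the classic form and TGTCGG as the stronger one. They were also searched for letters known to be bound by BZR1, which are the G-box CACGTG as well as CGTGTG and, in the same family, CGTGCG. Of the 8 actin windows, the ACT7 window holds TGTCTC and the ACT12 window holds CACGTG, and the other windows hold none of the 5. Among the same windows of 27443 protein-coding genes, TGTCTC occurs in 10.9%, TGTCGG in 4.16%, CACGTG in 6.49%, CGTGTG in 5.37% and CGTGCG in 1.57%. A match describes the letters only.

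Counts assigned to genes ran from 11225390 to 36431707 per library, and the 8 actins together took 0.193% to 0.317% of them. That share was 0.193% to 0.216% in the 4 libraries with IAA and 0.240% to 0.317% in the other 14. Levels are given as CPM, counts scaled to a common library size, with that size adjusted by TMM factors, and, between genes, as CPM per kilobase of annotated exon. ACT2, ACT8 and ACT7 together made up 94.4% to 95.8% of the actin CPM per kilobase in each library. In the 4 libraries with IAA, ACT7 led the 3 at either length tried. In mock roots, which of the 3 leads depends on the length used. In mock roots ACT2 stood at 424.1 and 467.7 CPM per kilobase of the union of all exons, below ACT8, with a mean log2 ratio of ACT2 to ACT8 of -0.0985. With the length of 1 transcript model the same ratio was 0.257, so no order is given between them. ACT11, ACT3 and ACT1 lay far lower, at 0.593% to 2.69%, 1.31% to 2.15% and 0.945% to 1.82% of the actin CPM per kilobase, and ACT4 at no more than 0.194%. ACT12 had 0 counts in 11 libraries and 1 count in the other 7. A count of 0 allows a level of up to 3 counts, 0.0837 to 0.270 CPM depending on the library, a bound that covers counting error only. ACT12 was therefore not tested, and 7 of the 8 actins were tested at 101 bp and 6 at 36 bp. The labelled root tissue could be checked on its markers. The 10 root hair and the 5 root meristem markers had counts in every group, and the 5 pollen markers summed to 0.0786 to 1.14 CPM per library, with 2 to 4 of them at 0 counts in both libraries of a group.

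**Figure D1:**
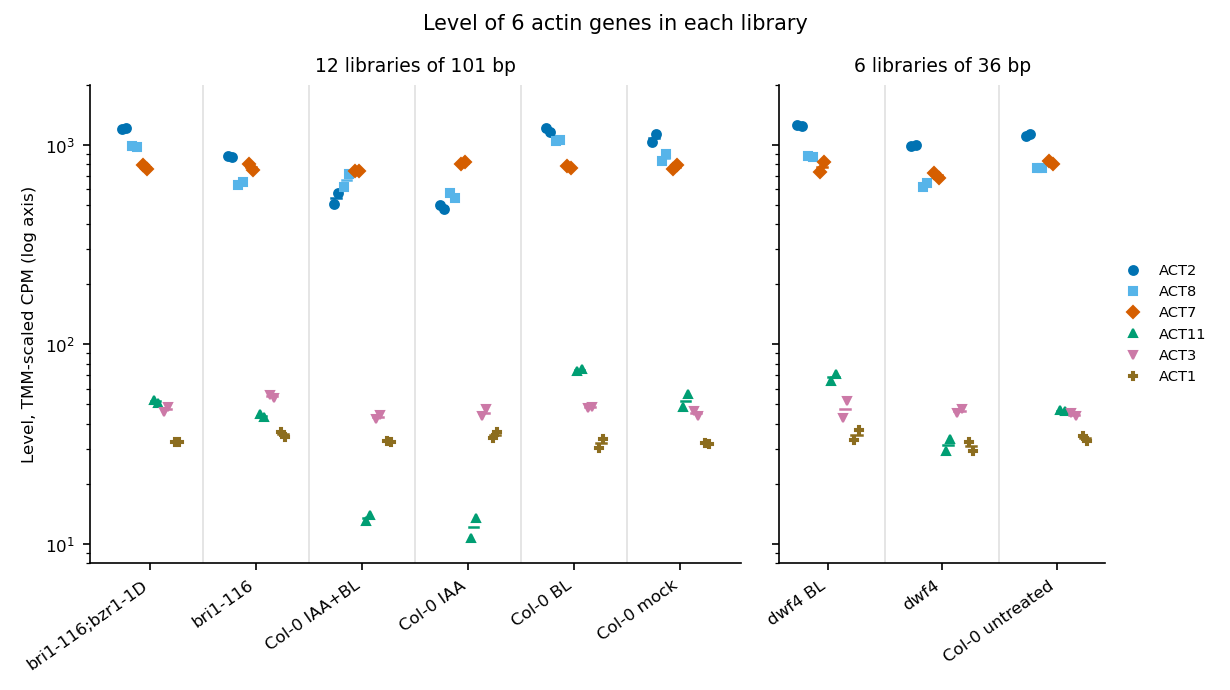
Level of 6 actin genes in every library, as TMM-scaled CPM on a log axis, by group, with 1 point per library and a short line at the mean of 2. ACT2 and ACT11 sit lowest in the IAA+BL and IAA groups of the 101 bp set, and ACT8 is lowest with IAA, with bri1-116 and IAA+BL next. ACT7, ACT3 and ACT1 stay near their level in mock roots in the IAA groups.

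After auxin, ACT2, ACT8 and ACT11 were low and ACT7 was not. With IAA alone ACT2 stood at 499.4 and 476.0 CPM, against 1025 and 1130 CPM in mock roots. ACT8 stood at 575.6 and 539.5 CPM with IAA, against 825.7 and 897.2 CPM in mock roots. ACT11 stood at 10.74 and 13.54 CPM with IAA, against 48.38 and 56.13 CPM in mock roots. For these 3 genes both IAA libraries lay below both mock libraries. With 2 libraries per group, such a lack of overlap is a description only, here and in the comparisons below. Its share over all loci is not given, so it adds no support to a call. The log2 differences between IAA and mock roots were -1.14 (SE 0.06) for ACT2, -0.63 (SE 0.07) for ACT8 and -2.15 (SE 0.09) for ACT11. ACT7, the vegetative actin that completes the class, had 804.1 and 820.5 CPM with IAA, against 751.0 and 786.5 CPM in mock roots, a log2 difference of 0.08 (SE 0.05). The differences of ACT1 and ACT3 were 0.13 (SE 0.07) and 0.01 (SE 0.06). The family was chosen on these libraries, and no test of them is given.

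The IAA+BL and BL libraries, which that choice did not use, allowed a test of auxin in the presence of brassinolide. ACT2 stood at 504.6 and 571.2 CPM with IAA+BL, against 1205 and 1157 CPM with BL alone. The groups did not overlap, and ACT2 fell to 45.5% of its BL level (log2 fold -1.14, SE 0.06; edgeR quasi-likelihood test, Benjamini-Hochberg adjusted p = 2.06e-10). ACT8 stood at 610.7 and 716.2 CPM with IAA+BL, against 1038 and 1056 CPM with BL, and fell by 0.66 on the log2 scale (SE 0.07, adjusted p = 3.47e-07). ACT11, a reproductive-class gene, stood at 12.97 and 13.99 CPM with IAA+BL, against 73.60 and 75.40 CPM with BL. It had a log2 fold of -2.47 (95% interval -2.67 to -2.27, adjusted p = 1.94e-12), so that its level with IAA+BL lay between 15.7% and 20.7% of that with BL. Of these 3, ACT11 differed most, and the 3 calls held in each of the alternatives run.

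ACT7 had 735.4 and 741.7 CPM with IAA+BL, against 777.9 and 767.5 CPM with BL. Its log2 fold was -0.07 (95% interval -0.18 to 0.05; adjusted p = 0.304), so its level with IAA+BL lay between 88.5% and 103% of that with BL. ACT1, with 32.86 and 32.56 CPM with IAA+BL and 30.07 and 33.63 CPM with BL, had a log2 fold of 0.05 (-0.10 to 0.21; adjusted p = 0.567). ACT3, which encodes the same protein as ACT1, had 42.46 and 44.41 CPM with IAA+BL, against 48.21 and 48.53 CPM with BL. Its log2 fold of -0.16 (SE 0.07) had an adjusted p of 0.0498. It missed the threshold in 5 of the 6 alternative settings, among them the replicate number as a block (0.0606). It also missed it without any 1 of the 4 libraries. Of the 7 actins tested, 4 were called lower and ACT4 higher with IAA+BL, where 56.2% of the 20644 loci tested were called, so the number of calls does not set the family apart.

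ACT4, known from pollen, had few reads. With IAA+BL 48 and 44 counts were assigned to it, against 3 and 3 counts with BL, a ratio of CPM of 14.2 (exact 95% interval 6.29 to 39.7, counting error only). With IAA alone 85 and 59 counts were assigned, against 6 and 6 in mock roots, a ratio of 12.2 (6.75 to 24.1). The other groups had 0 to 5 counts per library. ACT4 passed the filter on low counts through the IAA groups alone, so its call supports nothing by itself, and its level with IAA alone was 2.37 and 3.55 CPM. Pollen markers summed to 0.910 to 1.11 CPM with IAA+BL, against 0.495 to 1.04 CPM with BL, and 3 of the 5 had 0 counts in both groups. Of the 2 pollen markers tested, 1 was called higher with IAA+BL, beside 28.5% of all loci. With IAA alone the pollen markers summed to 0.67 to 1.14 CPM, against 0.337 to 0.442 CPM in mock roots. There too 1 of the 2 tested was called higher, beside 29.9% of all loci. The part of pollen-type expression in the ACT4 level was not tested.

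The response to auxin did not differ detectably between roots with and without brassinolide for any tested actin. The interaction was called for 1.44% of all loci and for 0 of 7 actins by edgeR, with 0 by DESeq2, and 1, ACT11, had an unadjusted p under 0.05. The interaction of ACT2 was 0.01 on the log2 scale (95% interval -0.18 to 0.20), that of ACT8 -0.03 (-0.23 to 0.17) and that of ACT11 -0.32 (-0.61 to -0.03; adjusted p = 0.364). This contrast holds the mock and IAA libraries on which the family was chosen.

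Root hair markers moved with ACT2 and ACT8 here. The 10 of them summed to 318 to 337 CPM with IAA+BL, against 833 to 873 CPM with BL, and all 10 were called lower, with a median log2 fold of -1.40, where 27.8% of all loci were called lower. Green shoot markers summed to 18.1 to 20.3 CPM with IAA+BL, against 30.3 to 41.2 CPM with BL, with 2 of 3 called lower. With IAA alone the root hair markers summed to 470 to 475 CPM, against 734 to 749 CPM in mock roots. Bulk libraries cannot tell fewer cells of a type from less RNA per cell, and the part of root hair and shoot cells in the actin levels was not tested.

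Ratios of 2 genes within a library need no scaling between libraries. The log2 ratio of ACT2 to ACT7 counts was -0.543 and -0.377 with IAA+BL, against 0.632 and 0.593 with BL. With IAA alone it was -0.687 and -0.785, against 0.449 and 0.523 in mock roots. ACT7 thus exceeded ACT2 in counts in the 4 libraries with IAA and in no other. By share of the actin CPM per kilobase, ACT7 held 40.7% and 37.6% with IAA+BL and 43.8% and 45.4% with IAA, against 27.2% and 27.0% with BL and 30.5% and 29.6% in mock roots.

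**Figure D2:**
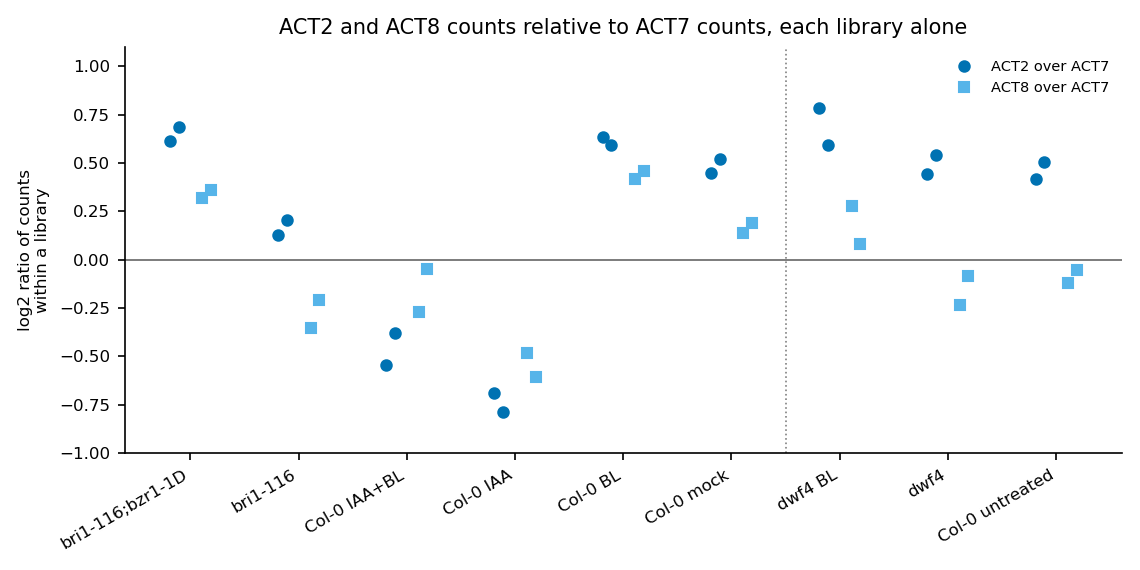
Log2 ratio of ACT2 and of ACT8 counts to ACT7 counts within each library, by group, with 1 point per library and the 36 bp set right of the dotted line. ACT2 is below ACT7 in the 2 groups with IAA, from -0.785 to -0.377, and above it in the 7 groups without IAA.

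With brassinolide alone, ACT11 and ACT8 were higher than in mock roots. ACT11 had 73.60 and 75.40 CPM with BL, against 48.38 and 56.13 CPM in mock roots, and rose by a log2 fold of 0.51 (SE 0.08, adjusted p = 5.11e-04). ACT8 had 1038 and 1056 CPM with BL, against 825.7 and 897.2 CPM in mock roots, and rose by 0.28 (SE 0.07, adjusted p = 0.0113). Both genes were without overlap between the groups, which is a description only. The ACT8 call was lost without the first mock library (log2 fold 0.22) or the second BL library (log2 fold 0.27). ACT2 had 1205 and 1157 CPM with BL, against 1025 and 1130 CPM in mock roots, a log2 fold of 0.13 (SE 0.06, adjusted p = 0.185). ACT7, ACT1 and ACT3 had log2 folds of 0.01, -0.02 and 0.10, with adjusted p from 0.322 to 0.952. The 2 calls among 7 tested actins stand beside 13% of all loci. Root hair markers summed to 833 to 873 CPM with BL, against 734 to 749 CPM in mock roots, with 3 of 10 called higher and 1 lower. Of all loci, 6.37% were called higher and 6.59% lower, and the part of root hair cells was not tested.

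In the presence of IAA, brassinolide was followed by a higher ACT8 level, at 610.7 and 716.2 CPM with IAA+BL, against 575.6 and 539.5 CPM with IAA. Its log2 fold was 0.25 (SE 0.07, adjusted p = 0.0255), the 1 call among 7 tested actins where 10.5% of loci were called. It was lost without the first or second IAA library (0.0585 and 0.219) or the second IAA+BL library (0.292). ACT2, at 0.14 (0.01 to 0.27; adjusted p = 0.185), passed when the first IAA+BL library was left out (log2 fold 0.24, adjusted p = 0.038). ACT7 had -0.14 (-0.25 to -0.03; adjusted p = 0.109) and ACT11 0.18 (-0.06 to 0.43; adjusted p = 0.354). Root hair markers moved the other way from ACT8 here, at 318 to 337 CPM with IAA+BL, against 470 to 475 CPM with IAA, with 8 of 10 called lower (median log2 fold -0.56) beside 5.13% of all loci, and their part was not tested. These 4 Col-0 comparisons share libraries with each other, so their values are set side by side and not counted as independent.

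**Figure D3:**
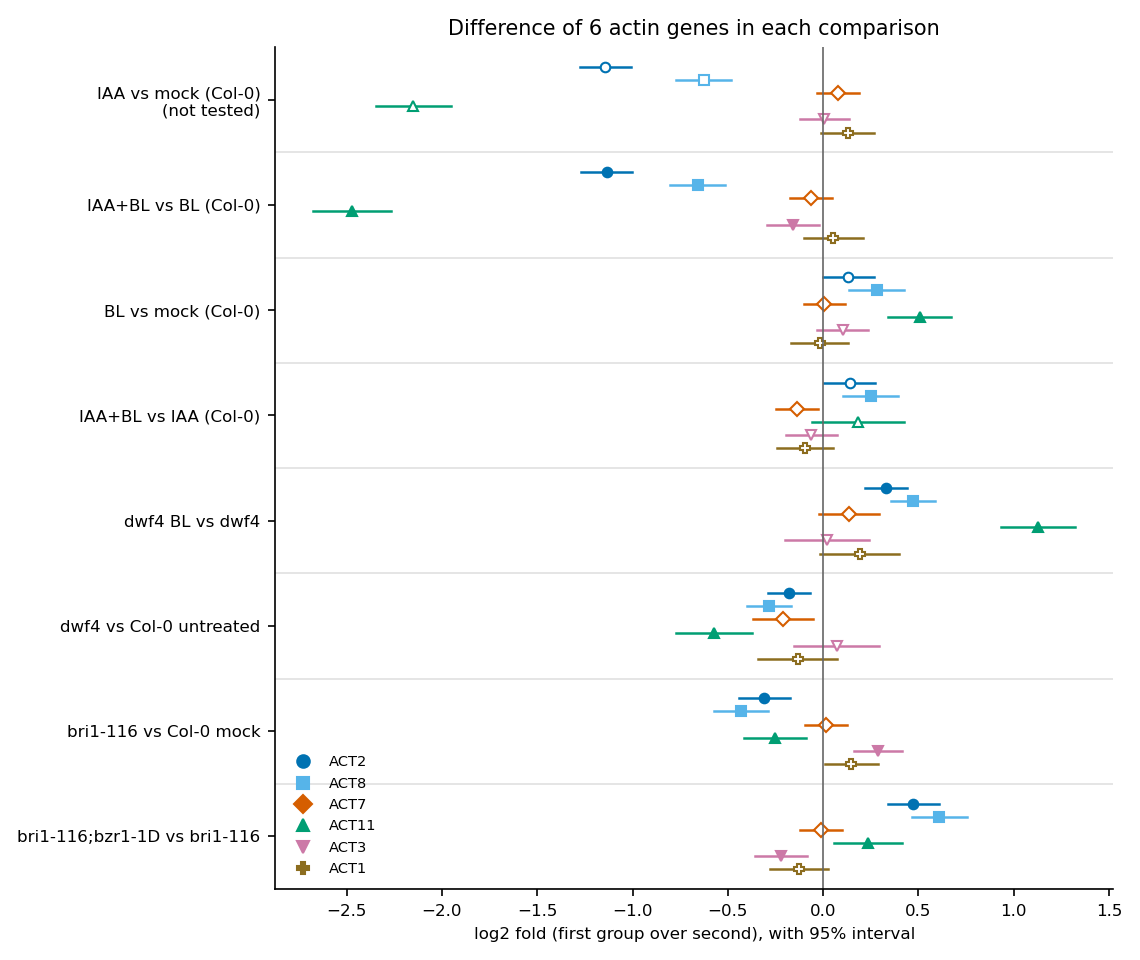
Log2 fold of 6 actin genes in 8 comparisons, first group over second, with 95% intervals from the fits. Filled points passed an adjusted p of 0.05, and the open points of the top comparison were not tested. ACT2, ACT8 and ACT11 lie left of 0 in both auxin comparisons, in dwf4 and in bri1-116, and right of 0 with BL and in the double mutant, while ACT7 lies within 0.21 of 0 throughout.

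Without the brassinosteroid receptor, ACT2 and ACT8 were lower and ACT3 was higher. ACT2 had 877.5 and 864.4 CPM in bri1-116, against 1025 and 1130 CPM in mock Col-0, and fell by 0.31 on the log2 scale (SE 0.06, adjusted p = 0.00103). ACT8 had 629.2 and 647.9 CPM in bri1-116, against 825.7 and 897.2 CPM in mock Col-0, and fell by 0.43 (SE 0.07, adjusted p = 8.88e-05). ACT3 had 56.01 and 53.87 CPM in bri1-116, against 46.48 and 43.70 CPM in mock-treated Col-0, and rose by a log2 fold of 0.29 (SE 0.06, adjusted p = 0.00120). In none of the 3 did the groups overlap. ACT11, with 44.66 and 43.26 CPM in bri1-116 against 48.38 and 56.13 CPM in mock-treated Col-0, fell by 0.25 (adjusted p = 0.0175), but the call was lost in DESeq2 (0.0712) and without the second mock library (log2 fold -0.11, adjusted p = 0.373) or either bri1-116 library (0.0531 and 0.101). ACT7 had 803.0 and 749.6 CPM in bri1-116, against 751.0 and 786.5 CPM in mock-treated Col-0, so the groups overlapped (log2 fold 0.01, -0.10 to 0.12; adjusted p = 0.861). ACT1 had a log2 fold of 0.15 (0.01 to 0.29; adjusted p = 0.0900). The 4 calls among 7 tested actins stand beside 36.1% of all loci.

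With bzr1-1D added to bri1-116, ACT2 and ACT8 were higher and ACT3 was lower than in bri1-116 alone. ACT2 had 1203 and 1214 CPM in the double mutant, against 877.5 and 864.4 CPM in bri1-116, and rose by a log2 fold of 0.47 (SE 0.06, adjusted p = 1.75e-05). ACT8 had 982.5 and 967.3 CPM in the double mutant, against 629.2 and 647.9 CPM in bri1-116, and rose by 0.61 (SE 0.07, adjusted p = 2.45e-06). ACT3 had 46.04 and 48.30 CPM in the double mutant, against 56.01 and 53.87 CPM in bri1-116, and fell by 0.22 (SE 0.06, adjusted p = 0.0116). The groups did not overlap for any of the 3. The ACT3 call was lost without the first bri1-116 or the first double mutant library (0.0717 and 0.0667). ACT11 had 52.70 and 50.90 CPM in the double mutant, against 44.66 and 43.26 CPM in bri1-116, a log2 fold of 0.24 whose adjusted p of 0.0326 missed the threshold without any 1 of the 4 libraries. ACT7, at 786.6 and 753.9 CPM in the double mutant and 803.0 and 749.6 CPM in bri1-116, had a log2 fold of -0.01 (-0.12 to 0.10; adjusted p = 0.889). The 4 calls of 7 stand beside 40.3% of all loci. Both mutant comparisons use the same bri1-116 libraries, so opposite signs between them are not independent.

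Other cell types moved with these groups too. Of all loci, 16.7% were called higher and 19.4% lower in bri1-116 against mock-treated Col-0. In the double mutant against bri1-116, 21.2% were called higher and 19.1% lower. Root hair markers summed to 959 to 1010 CPM in bri1-116, against 734 to 749 CPM in mock-treated Col-0, with 7 of 10 called higher where ACT2 and ACT8 were lower. In the double mutant they summed to 837 to 844 CPM, against 959 to 1010 CPM in bri1-116, with 6 of 10 called lower. Root meristem markers summed to 178 to 181 CPM in bri1-116, against 142 to 147 CPM in mock-treated Col-0, with 3 of 5 called higher. In the double mutant they summed to 131 to 138 CPM, against 178 to 181 CPM in bri1-116, with 4 of 5 called lower. All 3 green shoot markers were called higher in both comparisons. They summed to 39.8 to 44.6 CPM in bri1-116, against 24.9 to 28.1 CPM in mock-treated Col-0, and to 95.1 to 106 CPM in the double mutant, against 39.8 to 44.6 CPM in bri1-116. Their part in the actin levels was not tested.

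In roots deficient in brassinosteroid synthesis, ACT11, ACT8 and ACT2 were at lower levels. ACT11 had 29.12 and 33.55 CPM in dwf4, against 46.87 and 46.31 CPM in untreated Col-0, and fell by 0.57 on the log2 scale (SE 0.09, adjusted p = 0.00442). ACT8 had 614.0 and 644.0 CPM in dwf4, against 763.9 and 767.5 CPM in untreated Col-0, and fell by 0.28 (SE 0.05, adjusted p = 0.00889). ACT2 had 982.4 and 993.4 CPM in dwf4, against 1109 and 1129 CPM in untreated Col-0, and fell by 0.18 (SE 0.05, adjusted p = 0.0437). The groups did not overlap for any of the 3. The ACT2 call was lost with library totals as the scale (0.121), with the replicate number as a block (0.0949) and without any 1 of the 4 libraries, and the calls of ACT8 and ACT11 were lost without either Col-0 library (adjusted p from 0.0544 to 0.0849). ACT7 had 723.1 and 682.2 CPM in dwf4, against 829.7 and 795.3 CPM in untreated Col-0. Its log2 fold of -0.21 (-0.37 to -0.05) missed the threshold (adjusted p = 0.0861), passed it without the filter on low counts (0.0321) and passed it with all 18 libraries in the fit (0.0195). The 3 calls among 6 tested actins stand beside 12.7% of all loci. Root hair markers summed to 827 to 843 CPM in dwf4, against 562 to 599 CPM in untreated Col-0, with 4 of 10 called higher. Of the 5 meristem markers 2, and of the 3 green shoot markers 1, were called higher in dwf4, and none lower. These marker calls stand beside 4.79% of all loci called higher and 7.93% called lower. The part of these cell types in the actin levels was not tested.

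Brassinolide given to dwf4 was followed by higher levels of ACT11, ACT8 and ACT2. ACT11 had 65.73 and 71.12 CPM in dwf4 with BL, against 29.12 and 33.55 CPM in untreated dwf4, and rose to 219% of that level (191% to 250%; log2 fold 1.13, SE 0.09, adjusted p = 1.54e-04). ACT8 had 878.1 and 866.3 CPM in dwf4 with BL, against 614.0 and 644.0 CPM in untreated dwf4, and rose by a log2 fold of 0.47 (SE 0.05, adjusted p = 7.68e-04). ACT2 had 1249 and 1236 CPM in dwf4 with BL, against 982.4 and 993.4 CPM in untreated dwf4, and rose by 0.33 (SE 0.05, adjusted p = 0.00321). No groups overlapped for these 3, which is a description only. The 3 calls were kept in each alternative run. ACT7 had 725.4 and 820.1 CPM with BL, against 723.1 and 682.2 CPM in untreated dwf4, a log2 fold of 0.14 (-0.02 to 0.29; adjusted p = 0.230). ACT1 and ACT3 had log2 folds of 0.19 (adjusted p = 0.208) and 0.02 (adjusted p = 0.902). The 3 calls of 6 stand beside 13.3% of all loci. Root hair markers summed to 836 to 1090 CPM in dwf4 with BL, against 827 to 843 CPM in untreated dwf4, with 3 of 10 called higher. Meristem markers summed to 121 to 123 CPM in dwf4 with BL, against 145 to 155 CPM in untreated dwf4, with 3 of 5 called lower. Green shoot markers summed to 44.8 to 49.0 CPM in dwf4 with BL, against 31.3 to 35.9 CPM in untreated dwf4, with 2 of 3 called higher. These marker calls stand beside 7.86% of all loci called higher and 5.45% called lower. The part of these cell types in the actin levels was not tested. Both dwf4 comparisons use the same untreated dwf4 libraries.

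The ACT11 response to BL was larger in dwf4 than in Col-0, with a log2 fold of 1.13 in dwf4 and 0.51 in Col-0. The difference of 0.62 (SE 0.13) had an adjusted p of 0.0233 in the fit of all 18 libraries, where 0.937% of 20393 loci were called. It was lost when any 1 of 5 of the 8 libraries was left out, with folds from 0.50 to 0.63. For ACT2 and ACT8 the differences were 0.20 (adjusted p = 0.362) and 0.19 (adjusted p = 0.436). The 2 responses were read at different lengths and against different controls, untreated in dwf4 and mock-treated in Col-0, which cannot be told apart from genotype.

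How level a gene stayed was described by its span, the highest minus the lowest group mean of log2 TMM-scaled CPM over the 6 groups of 101 bp. ACT7 had a span of 0.137, and 1.71% of the 20644 tested loci had a smaller one. ACT1 had 0.154 and ACT3 0.338, against a median of 0.656 for all tested loci. ACT8, at 0.909, ACT2, at 1.31, and ACT11, at 2.61, lay above that median, and 79.2% of loci had a smaller span than ACT2. Among the 4792 loci with a mean of at least 50 CPM, the median span was 0.521. Of those loci, 3.09% had a smaller span than ACT7 and 87.7% a smaller span than ACT2. Of the vegetative actins, ACT7 was thus the level one and ACT2 the least level. Span is a description with no test, and for ACT2 it includes the auxin libraries that led to the choice of the family.

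Other genes in common use as references gave a scale for these spans. Of 16 listed, 15 were tested, with a median span of 0.266. Below ACT7 were UBC21, a ubiquitin-conjugating enzyme annotated as PEX4, at 0.113, and PP2AA3, a scaffold subunit of protein phosphatase 2A, at 0.126. APT1, an adenine phosphoribosyltransferase, had 0.197, AT4G34270, a TIP41-like protein, 0.198, and YLS8, a splicing factor, 0.299. UBQ10, a polyubiquitin, had 0.434, AT5G60390, an elongation factor, 0.630, TUB6, a tubulin, 0.721, and ROC1, a cyclophilin, 1.03. In IAA+BL against BL, 2 of the 15 were called higher and 4 lower, among them TUB6 (log2 fold -0.55, adjusted p = 5.91e-07), AT5G60390 (0.41, 2.26e-06) and ROC1 (-0.36, 7.84e-05), beside 28.5% and 27.8% of all loci.

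Over the 3 groups of 36 bp the spans were smaller, with a median of 0.280 for all tested loci. ACT3 had 0.0844, ACT1 0.191, ACT7 0.210, ACT2 0.331, ACT8 0.472 and ACT11 1.13. ACT7, ACT1 and ACT3 were below the median in both sets. In dwf4 and Col-0, where no auxin was given, 36.4% of tested loci had a smaller span than ACT7.

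**Figure D4:**
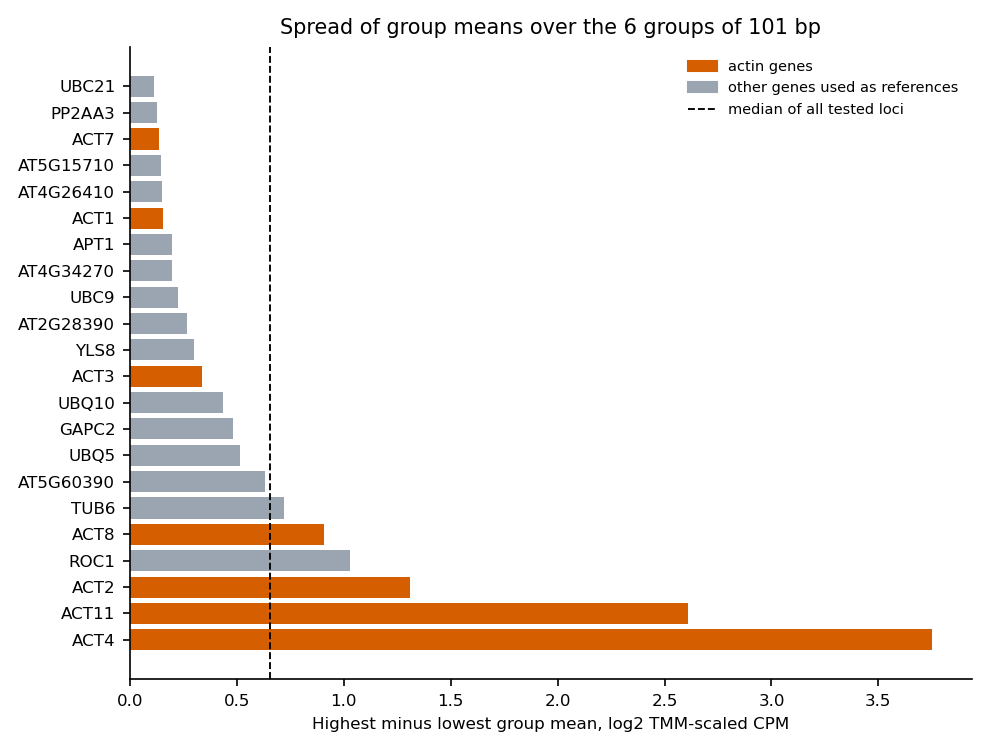
Highest minus lowest group mean over the 6 groups of 101 bp, on the log2 scale of TMM-scaled CPM, for 7 actin genes (red) and 15 other genes used as references (grey), with the median of all tested loci dashed. ACT7 and ACT1 stand among the shortest bars, at 0.137 and 0.154, and ACT2, ACT11 and ACT4 are the longest.

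Setting the level of 1 gene equal in both groups shifts the fold of every other gene by that gene's own fold. The values that follow therefore restate the folds above on another scale, carry no error of their own and are no separate evidence on any reference gene. In IAA+BL against BL, a scale set by ACT2 alone turned the sign of the fold of 42.6% of the other tested loci. One set by ACT8 turned that of 35.6%, and one set by ACT7 that of 5.62%. Among the called loci the shares turned were 38.2% with ACT2, 27.5% with ACT8 and 0% with ACT7. In bri1-116 against mock-treated Col-0 the shares of tested loci were 30.6% with ACT2, 36.1% with ACT8 and 2.14% with ACT7. Those of called loci were 14.5%, 25.2% and 0% in the same order. ACT7 was not the smaller in each comparison. In dwf4 against untreated Col-0 it turned 28.1% of loci, 19 of them called, against 25.5% and 0 called with ACT2. In IAA+BL against IAA it turned 27.7%, against 26.5% with ACT2, with 0 called loci turned by either.

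The levels of ACT2 and ACT11 over the 12 libraries of 101 bp had a Pearson r of 0.971, those of ACT2 and ACT8 0.886, and those of ACT2 and ACT7 -0.105. Points share groups and libraries, so these are descriptions. Other loci were ranked among the 4792 with a mean of at least 50 CPM, with the actins left out. The 5 with the highest r to ACT2 were CHX17, a cation/proton exchanger, the aquaporins PIP3 and PIP2;4, and the arabinogalactan proteins FLA8 and AGP14, with r from 0.9928 to 0.9939. For ACT8 they were ATG8E, of the autophagy machinery, GH9A1, a cellulase needed for cellulose synthesis, AT3G16850, AT2G25070 and XTH30, a xyloglucan endotransglucosylase, with r from 0.9841 to 0.9881. For ACT7 the highest were NSP5 (0.8723), mtLPD2 (0.7688), AT1G75400, BTS and MFP2 (0.7189). The most level loci of at least 50 CPM were DSS1(V), with a span of 0.0249, LETM2, with 0.0334, AT1G43690, PAF1 and AT4G38200, with up to 0.0547.

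Genes for proteins that act on actin were grouped into 7 lists of 76 genes, of which 72 were tested. In IAA+BL against BL, 12 were called higher and 26 lower, with a median log2 fold of -0.14, where 28.5% of all loci were called higher and 27.8% lower. Fewer of the 72 were thus called higher, and more lower, than their share of all loci would give, and the difference was not tested. Profilins, which bind actin monomers, gave 3 of 4 tested members lower. Of these PRF1 had a mean of 185 CPM with IAA+BL, against 302 CPM with BL (log2 fold -0.71, SE 0.05, adjusted p = 9.62e-09), and PRF2 a mean of 405 CPM with IAA+BL, against 562 CPM with BL (-0.47, SE 0.06, adjusted p = 2.18e-06). Actin-depolymerizing factors gave 5 of 9 lower. ADF11 had a mean of 11.4 CPM with IAA+BL, against 65.3 CPM with BL (-2.52, SE 0.08, adjusted p = 1.29e-13), and ADF8 one of 20.8 CPM with IAA+BL, against 55.8 CPM with BL (-1.45, SE 0.08, adjusted p = 3.22e-10). Both are known from root hairs.

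Counts of the remaining lists stand beside 28.5% of all loci called higher and 27.8% called lower in IAA+BL against BL. Class I formins, membrane-bound nucleators, gave 4 of 10 higher and 3 lower, led by AT3G07540 (log2 fold 1.89, adjusted p = 2.83e-08) and AT3G05470 (1.39, adjusted p = 6.84e-07). The ARP2/3 and SCAR/WAVE complexes, which nucleate branched filaments, gave 0 of 16 higher and 4 lower, with SCAR1 at -0.64 (adjusted p = 3.02e-05). Villins, fimbrins and other bundling or capping proteins gave 1 of 10 higher and 4 lower, with VLN2 at -0.67 (adjusted p = 1.27e-07). Myosins, the motors on actin, gave 3 of 17 higher and 7 lower. Nuclear actin-related proteins, which belong to chromatin remodelling complexes, gave 4 of 6 higher and 0 lower, with ARP9 at 0.34 (adjusted p = 0.00357) and ARP7 at 0.32 (adjusted p = 4.55e-04). These lists hold 4 to 17 tested members each, and none was tested against the shares of all loci.

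**Figure D5:**
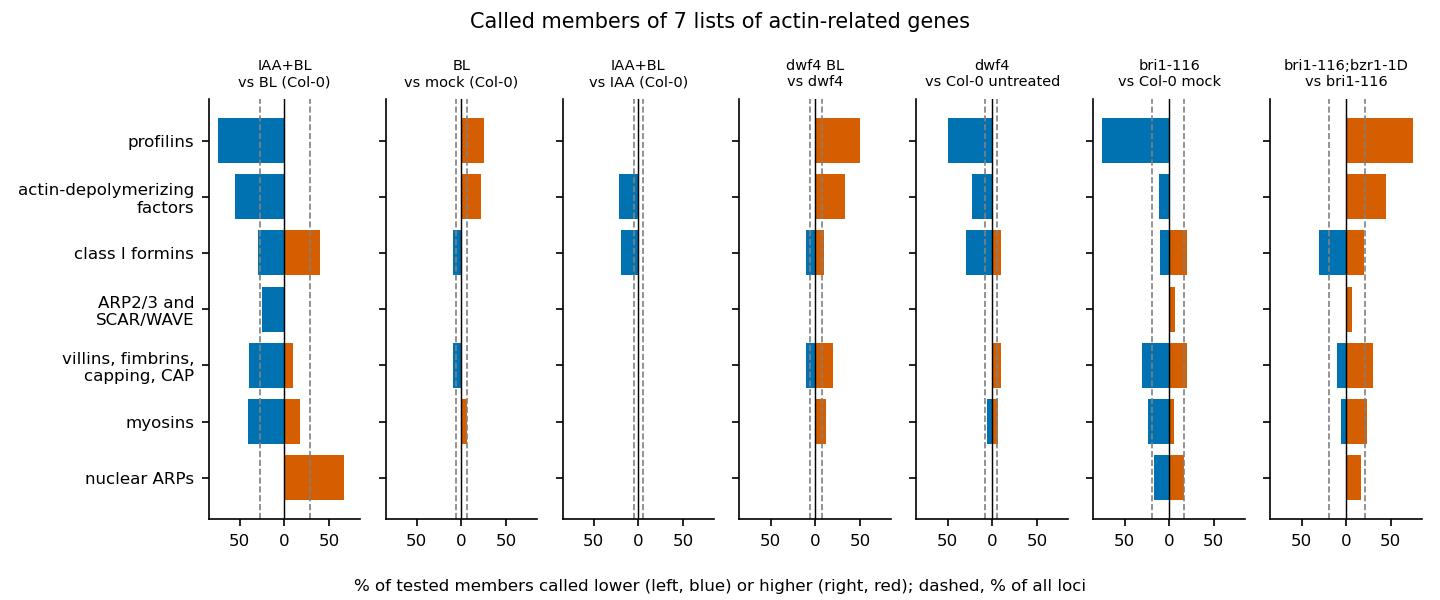
Percent of the tested members of 7 lists of actin-related genes that were called lower (left, blue) or higher (right, red) in 7 comparisons, with the percent of all tested loci dashed. Profilins have 3 of 4 members lower in IAA+BL and in bri1-116, and 3 of 4 higher in the double mutant.

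The brassinosteroid comparisons called fewer of these genes, and fewer of all loci as well, so each count is set beside the share of all loci. With BL against mock, 4 of 72 rose and 2 fell, where 6.37% of all loci rose and 6.59% fell. With IAA+BL against IAA, 0 rose and 4 fell, against 5.4% and 5.13% of all loci, ADF11 (-0.92, adjusted p = 3.43e-06) among them. In bri1-116, 7 of 72 rose and 13 fell, where 16.7% of all loci rose and 19.4% fell. They include PRF2, with a mean of 375 CPM, against 487 CPM in mock-treated Col-0 (-0.38, adjusted p = 5.94e-05), and PRF4 (-2.14, adjusted p = 3.13e-08). In the double mutant against bri1-116, 18 rose and 5 fell, beside 21.2% and 19.1% of all loci, with PRF4 at 2.04 (adjusted p = 1.93e-07) and PRF2 at 0.36 (adjusted p = 8.62e-05). In dwf4, 3 rose and 8 fell, beside 4.79% and 7.93% of all loci, with PRF2 at -0.51 (adjusted p = 0.00157). With BL in dwf4, 10 rose and 2 fell, beside 7.86% and 5.45% of all loci, led by the myosin XI-F (0.90, adjusted p = 0.00154). As in the actins, comparisons that share a group of libraries are not independent of each other.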

How the data were processed

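Per the labels' protocols, TruSeq libraries were prepared from total RNA of root tip sections. The authors deposited raw read counts, 1 whole number per locus and library. Their processing notes name Bowtie, HTSeq and TopHat 1.4.0 as tools, and TAIR10 as the build. Strand setting and annotation release: not given in the sources used here. The 5 closing lines for unassigned reads were left out. Tests used R 4.3.3 with edgeR 4.0.16 (TMM, filterByExpr with a minimum count of 10 and total of 15, 1 coefficient per group, quasi-likelihood test, Benjamini-Hochberg adjustment over all tested loci, adjusted p of 0.05), with 1 fit for the 101 bp set, 1 for the 36 bp set, and a joint fit only for the difference between BL responses. The scripts were tested on simulated data. DESeq2 1.42.0, other scalings, no filter, a replicate block and left-out libraries were alternatives. Spans used log2 of CPM plus 0.125. Lengths, symbols and sequences came from the RefSeq TAIR10.1 annotation. The members and gene lists were chosen with earlier results of these data known. Named genes were the actins, up to 4 called members of each list with the largest folds, all reference genes, the 5 loci most like ACT2, ACT7 and ACT8, and the 5 most level loci; only examples of these are printed. Depth was 11225390 to 36431707 counts per library.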

Additional observations from a re-analysis of the deposited data

Results flagged for a closer look

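The response of ACT11 to BL differed between dwf4 and Col-0 by a test of the difference itself. ACT11 rose by a log2 fold of 1.13 in dwf4 and 0.51 in Col-0, and the difference of 0.6223 (SE 0.13, edgeR quasi-likelihood test in the fit of 18 libraries) had an adjusted p of 0.0233. Both libraries of each BL group were above both libraries of its control, which is a description only. Without the second mock library the difference was 0.50 (adjusted p = 0.16), and without the first dwf4 library 0.53 (adjusted p = 0.112). The groups were too small for a test of single libraries that stand apart.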

How the results depend on the processing

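Counts of called loci moved by over 1.5 times in several comparisons. DESeq2 called 1701 loci for BL against mock (2675 in edgeR), 1617 for dwf4 against Col-0 (2487) and 1668 for BL in dwf4 (2602). With all 18 libraries in the fit the counts were 185 for the interaction (298), 3781 for dwf4 against Col-0 and 3988 for BL in dwf4, and with no filter 860 for the interaction and 842 for the difference between BL responses (191). With library totals as the scale the span of ACT7 was 0.0951, and the share of calls that were higher was 69.0% for IAA+BL against IAA (51.3% under TMM), 58.8% for the interaction (41.9%) and 52.2% for dwf4 against Col-0 (37.7%). The cause was not tested.

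Leaving out 1 library at a time, where a lone library is assumed to vary like the other groups, gave 1150 to 2350 called loci for BL against mock, 1099 to 1529 for IAA+BL against IAA, 141 to 348 for the interaction, 575 to 2359 for dwf4, 1323 to 2927 for BL in dwf4 and 70 to 629 for the difference between BL responses. Called actins numbered 1 to 2 for BL against mock, 0 to 2 for IAA+BL against IAA, 2 to 3 for the double mutant, 0 to 2 for dwf4 and 0 to 1 for the difference between BL responses. Spans ranged from 0.143 to 0.234 for ACT1, 2.46 to 2.78 for ACT11 and 3.38 to 4.24 for ACT4.

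No called fold changed sign. Uncalled folds that did were ACT7 for BL (-0.0039 with library totals), ACT3 for IAA (-0.0092 with library totals), ACT2 in the interaction (-0.0015 with RLE, -0.0017 in DESeq2), ACT8 in the interaction (0.023 with library totals), and, without 1 library, ACT2, ACT4 and ACT8 in the interaction (-0.096 to 0.11, -0.36 to 0.57, -0.16 to 0.093), ACT3 and ACT4 between BL responses (-0.25 to 0.060, -0.62 to 0.30), ACT1, ACT4 and ACT7 for BL (-0.087 to 0.090, -0.72 to 0.21, -0.025 to 0.045), ACT3 for IAA (-0.044 to 0.071), ACT1 for IAA+BL against BL (-0.050 to 0.12), ACT11 and ACT4 for IAA+BL against IAA (-0.0096 to 0.32, -0.47 to 0.12), ACT7 in bri1-116 (-0.033 to 0.072), ACT4 and ACT7 in the double mutant (-0.20 to 2.05, -0.076 to 0.032) and ACT3 for BL in dwf4 (-0.13 to 0.16). The ratio of ACT2 to ACT8 per kilobase, -0.0985 in mock roots, was 0.257 with the length of 1 transcript model, an alternative chosen after seeing the data.

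Equal replicate numbers did not pair the libraries: the correlation of their deviations was -0.148 to 0.15 at 101 bp, above 0.1 for 1 of 15 pairs of groups, and -0.158 to 0.0227 at 36 bp. With the replicate block the called loci numbered 2476 for BL against mock and 267 for the interaction, and the ACT3 call for IAA+BL against BL (0.0606) and the ACT2 call for dwf4 (0.0949) were lost. With 2 libraries per group, the 95% intervals printed beside uncalled folds bound what was seen, and at its depth ACT12 could not be tested.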
